A study of Mus musculus with 2 samples.

Results

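Integrins are cell surface receptors made of 1 alpha and 1 beta chain, and the genes described here encode these chains and the proteins that bind their short tails inside the cell. Members were the genes with a probe set (a group of short oligonucleotides for 1 transcript) whose platform annotation gives a single symbol naming an integrin alpha chain, an integrin beta chain, a kindlin, a talin, Ilk, a PINCH protein (Lims1, Lims2), a parvin, vinculin or paxillin. The rule gave 36 genes with 85 probe sets, of 18194 genes and 45101 probe sets in all. Of these, 6 were leukocyte integrin chains, 18 were other integrin chains and 12 were intracellular adaptors. Itgad, Itga11 and Fermt1 had no probe set with 1 symbol and are not analysed here.

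Signals were obtained with Affymetrix Mouse Genome 430 2.0 arrays from osteoblastic cells of the tibia and femur of C57Bl/6 mouse embryos at stage E18.5. Cells of Ebf2+/- and of Ebf2-/- embryos both carried lacZ at the Ebf2 locus. In both, cells with beta-galactosidase activity had been sorted after loading with its fluorogenic substrate FDG, and the sorted cells were expanded, unpassaged, in alpha MEM containing 10% serum. Each genotype has 1 array, the labels give 3 mice per genotype without saying whether their RNA was pooled, and wild-type cells are not analysed here, so every difference below compares 2 arrays and has no replicate check.

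Integrin alpha chains largely decide the ligand, such as collagen, laminin or the RGD motif of fibronectin and vitronectin. Beta chains carry the tail that talin and kindlin bind to switch the receptor on, and the complex of Ilk, PINCH and parvin then ties it to actin together with vinculin and paxillin. Osteoblastic cells attach to their matrix mainly through receptors with the beta1 chain or the alphav chain, whereas the beta2 chain and kindlin-3 (Fermt3) belong to blood cells.

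In the knockout cells the leukocyte chain Itgb2 and the blood cell kindlin Fermt3 were lower, by 8.56-fold and at least 7.15-fold. By their main probe sets, the fibronectin receptor chain Itga5 was 4.84-fold higher and the laminin receptor chain Itga6 was 2.37-fold lower. The chains Itgb1, Itgav and Itgb5 and the adaptors Fermt2, Ilk and Tln1, all bright in these cells, differed by at most 1.31-fold by their main probe set. Other bright adaptors differed more by theirs: Lims1 was 1.51-fold and Vcl 1.40-fold higher, and Parva 1.34-fold lower. Signals are the authors' MAS5 intensities. Genes above a background floor on 1 or both arrays count as measured; the floor was 17.8 for the heterozygote and 23.8 for the knockout, from receptor genes of smell and taste. Of the 36 members 28 were measured, 21 of them on both arrays and 7 on the heterozygote array only. Of all 11785 measured genes, 10057 were above the floor on both arrays, 1238 on the heterozygote only and 490 on the knockout only. Of the 28, 5 had a knockout signal at least 2-fold lower, 1 a signal at least 2-fold higher, and 22 lay between. Over all 11785 measured genes 3.46% lay past 2-fold on the lower side and 6.30% on the higher side. The median log2 ratio of knockout over heterozygote was 0.01 for the members and 0.03 for all measured genes.

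**Figure D1:**
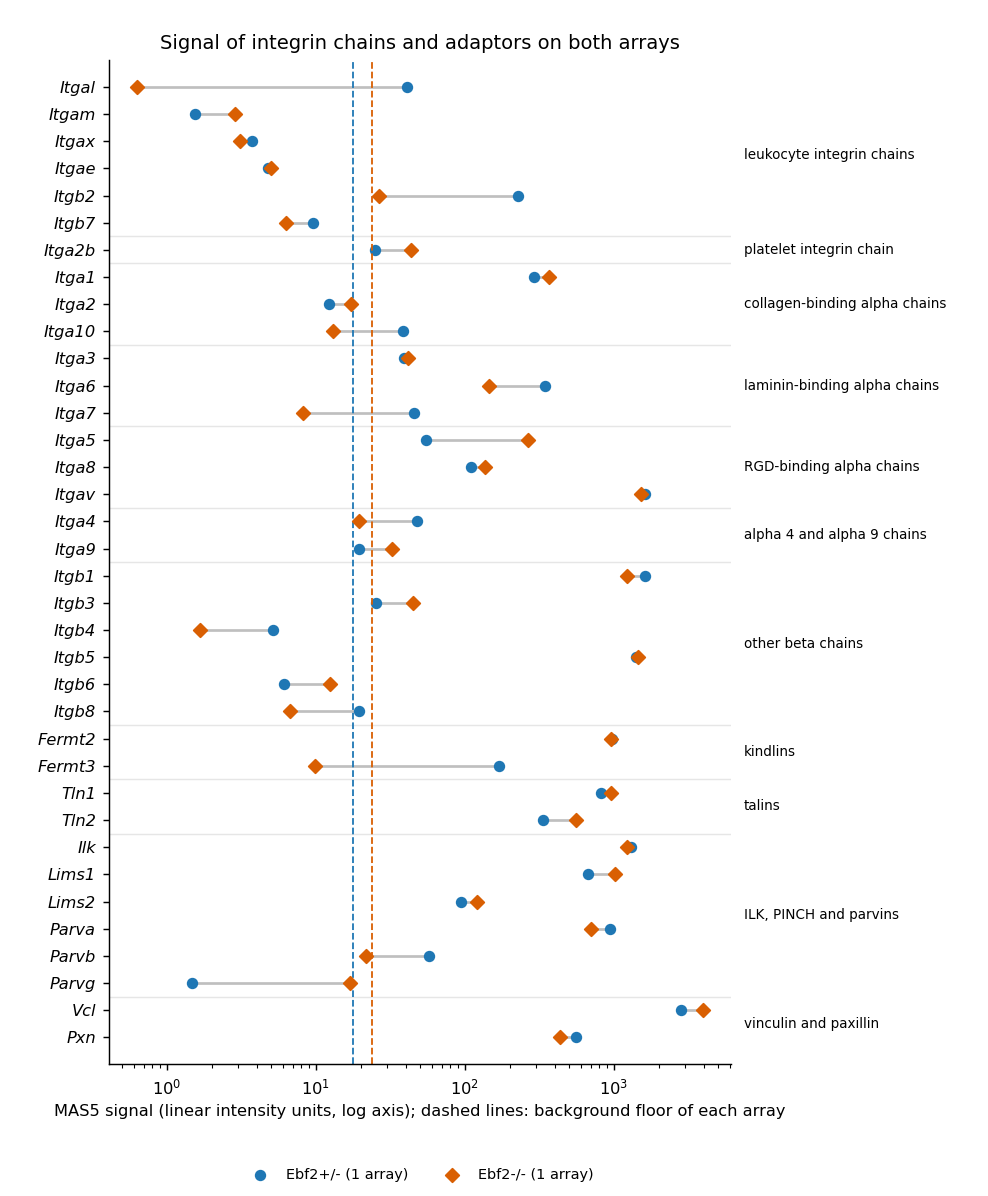
MAS5 signal of each of the 36 members on the heterozygote array (circles) and the knockout array (diamonds), on a log axis, by functional group; dashed lines are the background floors of 17.8 and 23.8. Itgb2 and Fermt3 lie far apart between the arrays, as does Itga5 in the other direction, and 8 members lie under the floor of each array.

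Shown first are the promoters of Fermt3, Itga5, Itga4 and Parvb, the members past 2-fold that the sequence table holds; Itgb2 and Itga6 are the other two. Sequences are from RefSeq (GRCm38.p6), 250 bases before to 50 after the start, 5′ to 3′. Capitals mark matches on either strand to CCCNNGGG, the core of the motif bound by EBF factors such as the deleted Ebf2, or to GAGGAA, the core of the PU box bound by the blood cell factor PU.1. No match to one overlaps a match to the other in these promoters.
Fermt3 promoter, chr19:7019420-7019719, strand -: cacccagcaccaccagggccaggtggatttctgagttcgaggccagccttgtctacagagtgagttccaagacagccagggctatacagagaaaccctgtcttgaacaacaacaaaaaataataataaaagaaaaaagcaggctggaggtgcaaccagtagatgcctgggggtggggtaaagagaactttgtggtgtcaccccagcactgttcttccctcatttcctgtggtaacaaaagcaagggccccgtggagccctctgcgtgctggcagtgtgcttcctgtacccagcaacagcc
Itga5 promoter, chr15:103366742-103367041, strand -: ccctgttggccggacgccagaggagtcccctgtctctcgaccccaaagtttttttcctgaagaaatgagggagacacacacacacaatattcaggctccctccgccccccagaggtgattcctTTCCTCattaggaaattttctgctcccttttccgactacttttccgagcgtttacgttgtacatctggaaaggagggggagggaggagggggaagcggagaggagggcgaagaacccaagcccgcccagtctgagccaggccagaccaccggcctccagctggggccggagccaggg
Itga4 promoter, chr2:79255176-79255475, strand +: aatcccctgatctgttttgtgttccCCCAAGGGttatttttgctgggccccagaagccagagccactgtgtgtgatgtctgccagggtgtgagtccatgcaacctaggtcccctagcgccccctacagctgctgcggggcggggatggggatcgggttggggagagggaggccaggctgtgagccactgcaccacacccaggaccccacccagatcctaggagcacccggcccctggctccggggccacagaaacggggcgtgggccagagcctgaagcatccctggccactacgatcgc
Parvb promoter, chr15:84231793-84232092, strand +: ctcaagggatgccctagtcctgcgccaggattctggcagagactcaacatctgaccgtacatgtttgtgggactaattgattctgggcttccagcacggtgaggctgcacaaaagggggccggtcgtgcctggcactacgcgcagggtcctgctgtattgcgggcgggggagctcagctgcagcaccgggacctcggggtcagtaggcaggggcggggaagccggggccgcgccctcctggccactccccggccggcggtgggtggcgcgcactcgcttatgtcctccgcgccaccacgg
CCCNNGGG was found in 13.7% and GAGGAA in 28.3% of all 32851 promoters of this length in the table. Among the 31 member promoters (25 genes), CCCNNGGG was in 6, of the genes Fermt2, Itga2b, Itga4, Itgb7, Tln1 and Vcl. GAGGAA was in 11, of the genes Itga2b, Itga3, Itga5, Itgam, Itgav, Itgb1, Itgb6, Itgb7, Lims1, Parvg and Tln1. Among these, Itgam, Itgb6, Itgb7 and Parvg were under the floor on both arrays. The promoters of Fermt3 and Parvb hold neither string in this window. A match is a string of letters and was not tested as a binding site.

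Among the leukocyte integrins, which carry immune cells across vessel walls and hold them to other cells, 2 of 6 chains were measured. Itgb2, the shared beta chain of the beta2 integrins, has a single probe set. It read 226 on the heterozygote array and 26.4 on the knockout array, where it stood just above the floor. The knockout signal was 8.56-fold lower. With a higher floor (99th percentile of the receptor genes, 32.3 on the knockout array) that signal fell under the floor. The log2 ratio was then -2.81, a lower bound. Adding 50 to both signals, which damps ratios of dim genes, moved the log2 ratio of Itgb2 from -3.10 to -1.85. Itgal, the alpha chain of LFA-1 that pairs with Itgb2, read 40.7 on the heterozygote array and 0.630 on the knockout array. It was above the floor on the heterozygote array only, which gives at least 1.71-fold lower, and its second probe set (16.8 and 0.911) was under both floors. Itgam and Itgax, the alpha chains that join Itgb2 on macrophages and dendritic cells, were under the floor on both arrays by their single probe sets. Itgam read 1.55 and 2.85, and Itgax 3.72 and 3.10. The epithelium-homing chains Itgae (4.77 and 4.98) and Itgb7 (9.59 and 6.32) were also under both floors.

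The leukocyte chains had a median log2 ratio of -1.94 over the 2 measured chains, and 1 of the 2 was at least 2-fold lower. The other integrin chains had a median of 0.09 over 15 measured chains, with 2 at least 2-fold lower and 1 higher. The medians differed by -2.02, a size that depends on the floor because the value of Itgal is a lower bound. The difference was -4.60 with no floor and -3.43 over chains above the floor on both arrays, where Itgb2 is the single leukocyte chain left. With Itga4 and Itga2b, which blood cells also carry, counted as leukocyte chains, it was -0.97. It rests on Itgb2 and Itgal and had no replicate test.

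**Figure D2:**
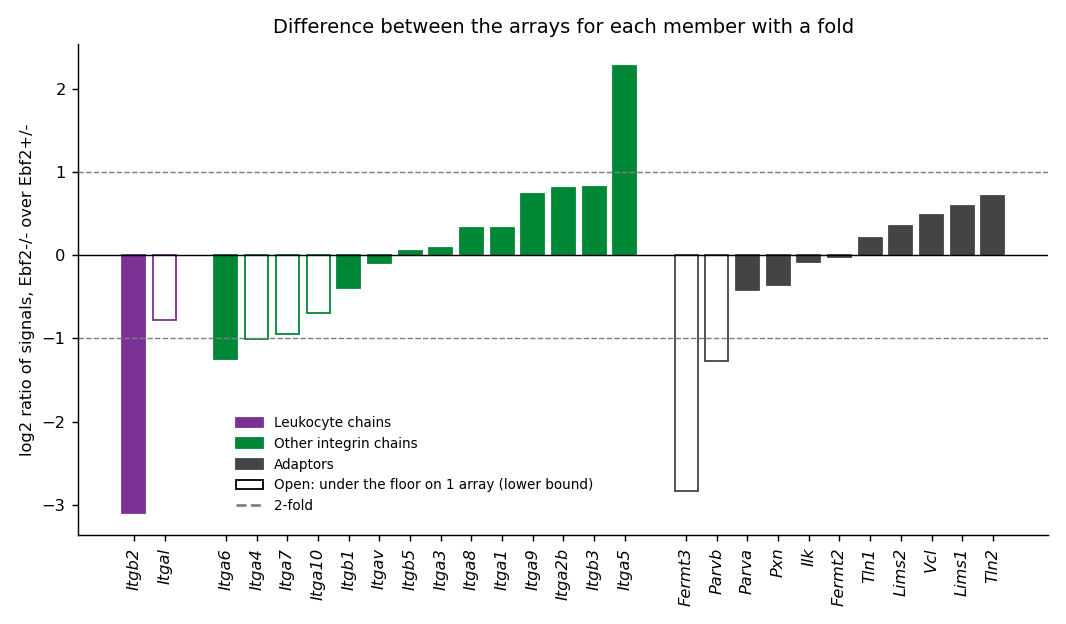
Log2 ratio of knockout over heterozygote signal for the 27 members with a fold, in 3 groups; open bars are lower bounds because the gene was under the floor on the knockout array, and dashed lines mark 2-fold. Itgb2 (-3.10) and Fermt3 (-2.84) reach lowest and Itga5 (2.27) highest, while most others stay within 2-fold.

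Markers of blood cells differed between the arrays as well. Of 19 macrophage and leukocyte markers, all measured, 18 were lower by 2-fold or more, against 3.46% of all measured genes. The median log2 ratio of these markers was -1.92, and their summed signal was 7279 for the heterozygote against 1780 for the knockout. The macrophage receptor Csf1r read 1529 and 405, the protease Ctss 859 and 137, and the adaptor Tyrobp 680 and 149.8. The pan-leukocyte antigen Ptprc, chosen for its value, had a log2 ratio of -2.90, against -3.10 for Itgb2. Spi1, which encodes PU.1 and was chosen likewise, read 45.5 and 42.3. All 10 T, B and NK cell markers with a probe set were under both floors. The part of these cells in the values of Itgb2, Itgal and Fermt3 was not tested, and in a bulk sample fewer cells of a type and less RNA per cell cannot be told apart.

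**Figure D3:**
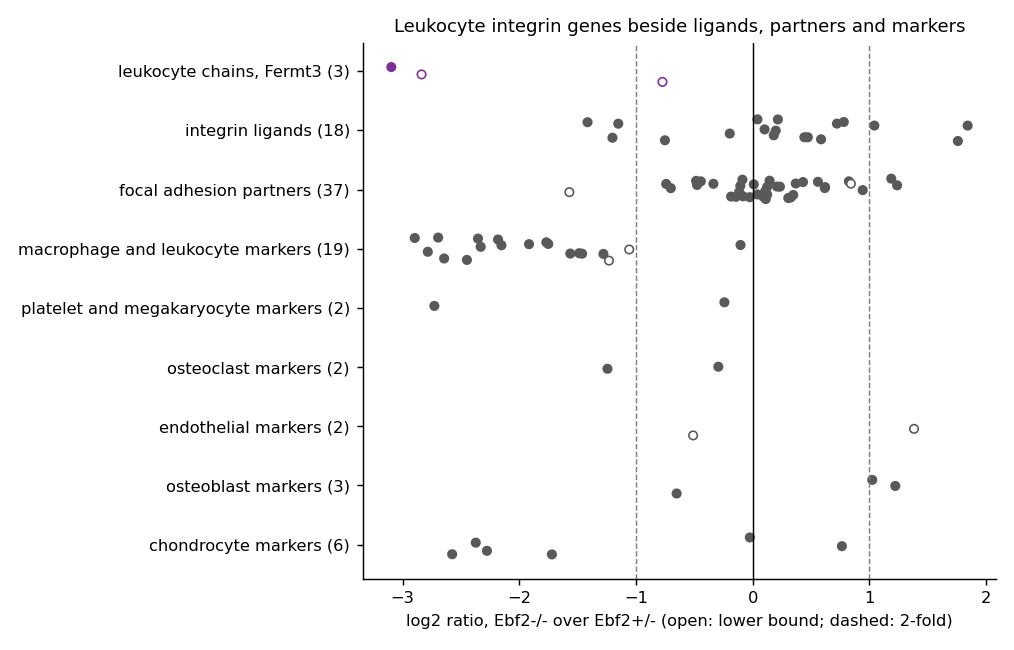
Log2 ratio of knockout over heterozygote for Itgb2, Itgal and Fermt3 (purple) beside integrin ligands, focal adhesion partners and markers of other cell types; each point is 1 gene with a fold, open points are lower bounds, and numbers of points are in parentheses. Itgb2 and Fermt3 lie at the low end of the macrophage and leukocyte markers, and the partners lie around 0.

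Itga2b, the platelet chain that pairs with Itgb3 to bind fibrinogen, was dim on both arrays. It read 24.8 on the heterozygote array and 43.4 on the knockout array, 1.75-fold higher. Its partner Itgb3, which with alphav is also the vitronectin receptor of osteoclasts, read 25.3 and 44.8, 1.77-fold higher, and its second probe set was under both floors. Both chains were thus on the same side, by less than 2-fold. Of 6 platelet and megakaryocyte markers with a probe set 4 were measured: Pf4 read 785 and 118.5, Gp1bb 83.1 and 70.2, Ppbp 18.0 and 19.0, and Gp5 23.3 and 4.95. Gp9 and Gp6 were under both floors. Of 8 osteoclast markers 2 were measured, Ctsk (858 and 699.96) and Nfatc1 (101 and 42.7), and 6 were under both floors, among them Acp5 and Calcr. No gene with a fold on either marker list was higher in the knockout. Of 6 endothelial markers 2 were measured, Tek (3.53 and 46.5) and Kdr (33.9 and 3.32).

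The alpha chains that bind the RGD motif included the member with the highest ratio. Itga5, which joins Itgb1 to form the main fibronectin receptor, read 55.2 on the heterozygote array and 267 on the knockout array, 4.84-fold higher. A second probe set of Itga5 read 15.4 and 36.9, at least 2.07-fold higher, another read 20.0 and 22.1, which gives no fold, and the fourth was under both floors. The size of the difference therefore depends on the probe set. The mean log2 ratio of all 4 was 0.999, just under 2-fold. In that mean the probe set without a fold and the one under both floors enter at floor-set values, 0.25 and 0.42. The main probe set of Itga5 ends in _s_at, which marks probes that can match more than 1 transcript. Without _s_at, _x_at and _a_at probe sets its log2 ratio was 1.05. With 50 added to both signals the log2 ratio of the main probe set was 1.59 instead of 2.27. Itgav, the alpha chain of the vitronectin receptors, read 1629 and 1524, and a second probe set 98.98 and 78.0. Itga8, a receptor chain for nephronectin, read 109 and 137. Itgav and Itga8 thus differed by 1.07-fold lower and 1.26-fold higher.

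Of the laminin-binding chains, which anchor cells to basement membranes, Itga6 read 345 on the heterozygote array and 145.8 on the knockout array, 2.37-fold lower. Its second probe set read 173 and 103, 1.68-fold lower, so both were on the same side, and their mean log2 ratio was -0.996. Itga7, best known from skeletal muscle, read 45.7 and 8.23, and was at least 1.92-fold lower because the knockout signal was under the floor. Itga3 was dim, at 39.2 and 41.6 by its main probe set. Another of its probe sets read 8.92 and 24.4, at least 1.37-fold higher, and the remaining one was under both floors. Itgb4, the other beta chain that pairs with Itga6, was under both floors (5.14 and 1.67).

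Among the collagen-binding chains, Itga1 read 291 and 367, 1.26-fold higher, and its other probe set was at least 2.06-fold higher (13.0 and 36.8). Itga10, a collagen receptor chain of chondrocytes, read 38.4 on the heterozygote array and 13.1 on the knockout array, which is at least 1.61-fold lower. Chondrocyte markers were mostly lower on the same array. Of 6 measured, 4 were lower by 2-fold or more, against 3.46% of all measured genes. The median log2 ratio of these markers was -2.00, and the summed signal of all 8 with a probe set was 11444 and 3676. Col2a1 read 8542 and 2592, Col9a1 1788 and 345, and Comp, which was higher in the knockout, 232 and 395. Matn1 was under both floors, as was the main probe set of Matn3, whose second probe set read 19.8 and 0.823. The part of chondrocytes in the value of Itga10 was not tested. Itga2 was under both floors (12.2 and 17.3).

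Itga4, a receptor chain for VCAM-1 and fibronectin found on blood and mesenchymal cells, read 47.7 on the heterozygote array and 19.5 on the knockout array. It was at least 2.00-fold lower, a bound that lies at the 2-fold line and is set by the knockout floor; its other 4 probe sets were under both floors. A stricter floor (99th percentile of the receptor genes) moved its floor-set log2 ratio to -0.56, adding 50 to both signals moved it to -0.49, and the signals without any floor gave -1.29. Itga9, a receptor chain for tenascin-C, read 19.4 and 32.5, 1.67-fold higher, and another of its probe sets was at least 2.30-fold higher (10.2 and 41.0). These 2 related chains thus lay on opposite sides.

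The beta chains of mesenchymal cells differed little. Itgb1, the partner of most matrix-binding alpha chains, read 1614 and 1227, 1.31-fold lower, and its 3 probe sets above the floor were all between 1.31-fold and 1.40-fold lower. Itgb5, which pairs with alphav, read 1416 and 1462 by its main probe set. Its other 3 probe sets were between 1.21-fold and 1.59-fold lower, so the direction for Itgb5 is not settled. Itgb8, another partner of alphav, read 19.5 and, below the knockout floor, 6.68, which gives no fold. Itgb6 was under both floors (6.08 and 12.5). By the main probe sets, the alpha5 chain was higher and the alpha6 chain lower while their shared partner Itgb1 was 1.31-fold lower. These are RNA signals, and receptors at the cell surface were not measured.

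**Figure D4:**
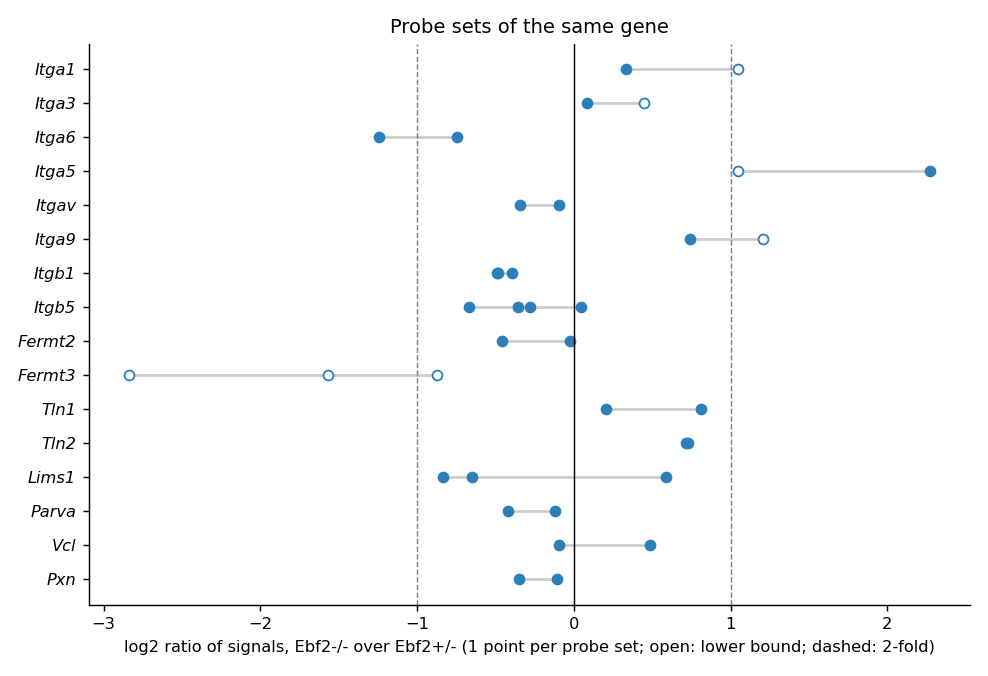
Log2 ratio of knockout over heterozygote for each probe set with a fold, for the 16 members that have several; open points are lower bounds and dashed lines mark 2-fold. In 13 members all points lie on one side of 0, while those of Itgb5, Lims1 and Vcl lie on both.

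Among the adaptors 11 of 12 were measured, 2 were lower and 0 higher by 2-fold or more, and the median log2 ratio was -0.02. Over all measured genes 3.46% were lower and 6.30% higher by 2-fold or more. The kindlins, which bind the beta tail beside talin, gave different pictures. Fermt3 read 170.3 on the heterozygote array and 9.85 on the knockout array, which is at least 7.15-fold lower. Its 3 other probe sets read 70.7 and 17.0, 43.6 and 1.36, and 19.7 and 1.44, so all 4 were above the floor on the heterozygote array only. Fermt2, the kindlin of mesenchymal cells, read 973 and 958, and a second probe set 429 and 312. The main probe set of Fermt3 ends in _s_at, which marks probes that can match more than 1 transcript. Its log2 ratio of -2.84 became -1.88 when 50 was added to both signals and -1.25 when all 4 probe sets were averaged. In that mean the dimmest probe set (19.7 and 1.44) enters at a floor-set 0.27, because its heterozygote signal does not exceed the knockout floor. One kindlin was thus seen only in the heterozygote and the other was nearly alike on both arrays.

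Talins bind the beta tail, activate the receptor and link it to actin. Tln1 read 825 and 953, 1.16-fold higher, and a second probe set 32.3 and 56.7, 1.76-fold higher. Tln2 read 337 and 554, 1.64-fold higher, and 1.65-fold by a second probe set. Every talin probe set above the floor thus gave a higher knockout signal, none by 2-fold.

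In the complex of Ilk, PINCH and parvin, the scaffold Ilk read 1300 and 1229 and was alike on both arrays. Parva, the widely expressed parvin, read 937 and 702, 1.34-fold lower, and 1.09-fold lower by its second probe set. Parvb read 57.5 on the heterozygote array and 21.7 on the knockout array, which is at least 2.41-fold lower, with its other probe set under both floors. As its knockout signal was under the floor, the stricter floor by construction weakened the bound, from a log2 ratio of -1.27 to -0.83. Adding 50 to both signals, which damps ratios of dim genes, gave -0.58, and the signals without any floor gave -1.40. Parvg, the parvin of blood cells, was under both floors (1.48 and 16.9). The probe sets of the PINCH gene Lims1 disagreed: the brightest read 674 and 1014, 1.51-fold higher, whereas the 2 others with a fold were 1.79-fold and 1.57-fold lower. Its relative Lims2 read 93.9 and 119.9, 1.28-fold higher. Vinculin, Vcl, which reinforces talin under load, read 2825 and 3958, 1.40-fold higher, but 1.07-fold lower by its second probe set. The docking protein paxillin, Pxn, read 553 and 433, 1.28-fold lower, and 1.08-fold lower by its second probe set.

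Of 37 focal adhesion partners with a probe set, all were measured, 2 were higher and 1 lower by 2-fold or more, and the median log2 ratio was 0.11. These shares, 5.41% and 2.70%, are near those of all measured genes (6.30% and 3.46%). Lpxn, encoding the paxillin relative leupaxin of blood cells, read 70.8 and 20.9, at least 2.97-fold lower. Tns1, encoding the actin-binding tensin-1, read 148 and 350.2, 2.36-fold higher, and all 3 of its probe sets were at least 2-fold higher. Sorbs3, encoding the vinculin-binding vinexin, read 64.4 and 147, 2.28-fold higher. Apbb1ip, encoding RIAM, which brings talin to the membrane, read 21.2 and 40.9, 1.92-fold higher.

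Of 30 integrin ligands with a probe set 20 were measured, 3 were higher and 3 lower by 2-fold or more, and the median log2 ratio was 0.21. Each share is 15% of the measured ligands, against 6.30% higher and 3.46% lower over all measured genes. The laminin chain Lamc1 read 201 and 721, 3.59-fold higher, although its second probe set was under both floors. Periostin, Postn, a ligand of alphav integrins, read 2884 and 9763. The laminin chain Lama1 read 67.1 and 25.2, 2.67-fold lower, and stood just above the floor in the knockout. Edil3, an RGD protein that binds alphav integrins, read 750.0 and 326, 2.30-fold lower, and 4.17-fold by a second probe set. The remaining lower ligand, Npnt, encoding nephronectin, is singled out because its probe sets disagreed. It was 2.22-fold lower by its main probe set and 1.83-fold lower by another, but 2.47-fold and at least 2.53-fold higher by further ones. Fibronectin, Fn1, the ligand of the alpha5 chain and singled out for that, read 10368 and 10667. Of the 6 laminin chains with a fold, Lama1 was the one lower in the knockout. Lama4 was 2.06-fold higher, Lamb1 1.39-fold, Lama2 1.16-fold and Lamb2 1.07-fold. These are signals of single laminin chains, and a link to the value of the alpha6 chain was not tested.

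Spreads within the arrays do not give the precision of a difference between genotypes. They hold no variation between mice, sorts or cultures, and the pooled SD given here leaves out lower bounds. Between probe sets of 1 gene the pooled SD of the log2 ratio was 0.44 across 4119 genes and 0.38 across the 11 members with several probe sets above the floor on both arrays. The log2 ratio of the 18 spike-in probe sets was 0.18 ± 0.15 (SD, n = 18), and scaling to them gave 528 genes past 2-fold on the higher and 625 on the lower side, against 742 and 408 as deposited. Spike-in scaling takes this 0.18 off every log2 ratio, so by construction it turned the 2 members between 0 and that value lower, Itga3 (0.09) and Itgb5 (0.05). Lowess scaling turned Itga3 (to -0.03) lower and Fermt2 (to 0.04) higher, and quantile scaling turned none of the 27 members with a fold. The 3' over 5' signal ratio, a sign of RNA integrity, was 1.97 and 2.79 for beta-actin, and its part in these values was not tested. The 3 probe sets of Ebf2 read between 13.7 and 25.1 on the arrays and neither check nor contradict the genotype labels. Of the osteoblast markers with a probe set 3 of 6 were measured, Col1a1 (5478 and 12784), Sp7 (83.7 and 53.3) and Alpl (25.4 and 51.8), while Ibsp, Phex and Dmp1 were under both floors. The second probe set of Col1a1 went the other way, at 1375 and 982, 1.40-fold lower.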

How the data were processed

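Per the submitters' processing notes the deposited values come from MAS5 (version unstated), and each is a linear intensity per probe set. The authors' intensities had a mean of 99.97 on both arrays without the lowest and highest 2% of values, so scaling would hide a shift common to most genes. Detection calls were not used.

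Symbols came from the platform annotation; all 36 member symbols were the same in the mouse RefSeq table (GRCm38.p6). Each gene is represented by the probe set whose log2 signal, averaged over both arrays, is highest. The floor was the 95th percentile of 86 olfactory, vomeronasal and taste receptor probe sets on each array. Values under the floor were raised to it before taking log2 ratios of knockout over heterozygote. A fold is written "at least" where 1 array was under its floor, and no fold is given where the other signal did not exceed that floor. Members without a fold enter medians and measured counts at the floor-set value. With 1 array per genotype no p-value was computed, and 2-fold is a size, not a test. The number of arrays limits the precision. The members, lists and tests were chosen with earlier results of these data known. All members are described or listed; from the ligand and partner lists the 4 measured genes with the largest ratio either way are named, and from each marker list the 3 measured genes with the highest mean signal; other genes named were singled out, as stated. The calculation was tested on simulated data. Python 3.11.15, numpy 2.4.6, pandas 2.3.3 and statsmodels 0.14.6 were used. The alternatives are named with their effects in the closing section.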

Additional observations from a re-analysis of the deposited data

How the results depend on the processing

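Over the alternatives run, the median log2 ratio lay between -0.09 and 0.33 for the other integrin chains, between -0.20 and 0.21 for the adaptors, between 0.03 and 0.26 for the ligands and between -0.06 and 0.15 for the partners. The counts of members past 2-fold moved more, as several members lie near that size or near the floor. With the higher floor (99th percentile) 3 members and 1 of the other chains were at least 2-fold lower, against 5 and 2. With no floor these counts were 9 and 5, with 2 leukocyte chains, a leukocyte median of -4.55 and a leukocyte minus other difference of -4.60. The array median as floor and lowess scaling each gave 8 members, 4 other chains and 2 leukocyte chains. A pseudocount of 50 gave 3 members and 1 other chain, a leukocyte median of -1.35 and a difference of -1.39. As a mean over probe sets 2 members, 0 of them other chains, were lower and 0 members (0 other chains) higher. Itga6, Itga5, Itga4 and Parvb were then under 2-fold. Probe sets under both floors each enter this mean at the positive difference between the floors. This holds for those of Itga5 and Parvb and for the 4 of Itga4, which turned to 0.13. Without _s_at, _x_at and _a_at probe sets 2 members, both other chains, were higher (Itga5 and Itga9), and Fermt3 turned to 0.27, because its remaining probe set (19.7 in the heterozygote) does not exceed the knockout floor. Over genes above the floor on both arrays 2 members and 1 other chain were lower, with a leukocyte median of -3.10 and a difference of -3.43. With Itga4 and Itga2b as leukocyte chains 2 leukocyte and 1 other chain were lower, with a median of -0.89 and a difference of -0.97. Taking the beta2 family alone leaves out only Itgae and Itgb7, which were not measured, so its values are the same by construction and check nothing. With 2 alternatives chosen after seeing the data (without members that have no fold, and 1 common floor), every count stayed within 1.5 times the reported one.

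Over all genes the 408 lower and 742 higher became 932 and 997 with no floor, 134 and 280 with the pseudocount, 241 and 536 as a mean over probe sets, and 625 and 528 with spike-in scaling, under which 6 members were lower and 1 higher. No replicate could be left out and no paired analysis was possible because each genotype has 1 array. Signals close to the floor limit the dim members, among them Itgal, Itga10, Itga7 and Itga4, to lower bounds.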

Other observations

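Some genes with integrin or talin in their names lie outside the rule and were looked at after the members' values were known. Tlnrd1, encoding a talin rod domain protein that bundles actin, had signals of 24.6 (heterozygote) and 98.3 (knockout), 3.99-fold higher, while its second probe set was under both floors. Itgbl1, encoding a secreted protein with repeats like those of integrin beta chains, read 547 and 850.4, 1.55-fold higher. Itgb1bp1, encoding ICAP-1, which binds the beta1 tail, read 397 and 284, 1.40-fold lower. This gene is also counted among the focal adhesion partners above. Itgb2l, a relative of Itgb2, was under both floors by all 3 probe sets.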
